A study of Arabidopsis thaliana with 6 samples.

Results

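The 8 genes described here encode the proteins that build or are needed for the backbone of xylan, and they form 4 paralogue pairs, IRX9 with IRX9L, IRX14 with IRX14L, IRX10 with IRX10L and IRX15 with IRX15L. They were chosen by gene name, with a rule that used no level, as 8 rows among 33602 genes with an Arabidopsis identifier and a further 88 features without one. Earlier results of these data were known when that choice was made. The RNA came from mature stems of Arabidopsis thaliana, collected 35 days after flowering and stripped of flowers and leaves, in 3 libraries of the wild type (Columbia) and 3 of *hdt1*. The latter carries a T-DNA insertion in HDT1 (AT3G44750), which encodes a plant-specific histone deacetylase, and no plant received a treatment. The study describes a line with the insertion in the 5′ untranslated region and another with it in an exon, and the labels do not say which of them was sequenced. By the labels and the study's methods, all libraries come from 1 tissue and stage. Some sums of cell type markers nevertheless differed between library 1 and the others (values below). The deposited columns number the libraries 1, 2 and 4 in each genotype, and neither labels nor methods say what a number marks.

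Xylan is the main hemicellulose of the thick secondary walls of vessels and fibres in the Arabidopsis stem. Its backbone is a chain of β-1,4-linked xylose that is assembled in the Golgi, and mutants with too little of it have collapsed vessels, the irregular xylem (IRX) phenotype that gave the genes their names. IRX9, IRX9L, IRX14 and IRX14L belong to glycosyltransferase family GT43 and are needed for backbone elongation. IRX10 and IRX10L, of family GT47, carry the xylosyltransferase activity that extends the chain. IRX15 and IRX15L are DUF579 proteins of the Golgi, whose double mutant has shorter and more evenly sized xylan chains. In each pair the second gene is at least partly redundant with the first.

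The RefSeq annotation of TAIR10.1 places IRX9 (AT2G37090) on chromosome 2 from 15587394 to 15589369 on the minus strand, and IRX9L (AT1G27600) on chromosome 1 from 9603178 to 9606247 on the minus strand. IRX14 (AT4G36890) lies on chromosome 4 from 17379173 to 17382028 on the minus strand, and IRX10 (AT1G27440) on chromosome 1 from 9528967 to 9531489 on the minus strand. IRX10L (AT5G61840) lies on chromosome 5 from 24839177 to 24842143 on the minus strand, and IRX15 (AT3G50220) on chromosome 3 from 18617424 to 18618816 on the minus strand. IRX15L (AT5G67210, 26818949 to 26820157) and IRX14L (AT5G67230, 26822432 to 26824328) are close neighbours on the plus strand of chromosome 5, separated by AT5G67220 on the other strand. IRX15 and IRX15L each have a single exon, and the other members have 3 to 5. These coordinates were looked up by gene identifier, since the deposited table holds none.

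The coding sequences of the pairs diverge to different degrees. Over the aligned part, IRX9 and IRX9L were identical at 57.4% of bases, IRX14 and IRX14L at 72.6%, IRX10 and IRX10L at 76.6% and IRX15 and IRX15L at 84.3%. The longest run of identical bases was 48 bp in the IRX15 pair and 11 to 29 bp in the other pairs. On the opposite strand, AT5G67240 and AT5G09845 overlap the span of IRX14L, introns included, by 496 bp when the overlaps of both are added. AT5G09845 has no row in the deposited values. IRX15L shares 37 bp with AT5G67220. Without a stated strand setting, reads in these overlaps cannot be assigned to 1 gene, so the values of IRX14L are uncertain. AT5G67240 stood at 19.3, 24.7 and 23.6 FPKM in wild-type libraries against 19.7, 16.6 and 15.8 FPKM in *hdt1*.

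The 250 bases upstream of the annotated transcript start are shown for IRX9, IRX10, IRX15 and IRX15L, the 4 members whose *hdt1* libraries all lay above all wild-type libraries (values below). They are written 5′ to 3′ on the gene's strand of TAIR10.1, from chr2:15589370-15589619 (minus strand) for IRX9, chr1:9531490-9531739 (minus strand) for IRX10, chr3:18618817-18619066 (minus strand) for IRX15 and chr5:26818699-26818948 (plus strand) for IRX15L. Capitals mark TATAAA on the gene's strand and, on either strand, the secondary wall MYB-responsive element SMRE, spelled ACCNANN with A or T, A or C, and C or T for its N letters in turn.
IRX9: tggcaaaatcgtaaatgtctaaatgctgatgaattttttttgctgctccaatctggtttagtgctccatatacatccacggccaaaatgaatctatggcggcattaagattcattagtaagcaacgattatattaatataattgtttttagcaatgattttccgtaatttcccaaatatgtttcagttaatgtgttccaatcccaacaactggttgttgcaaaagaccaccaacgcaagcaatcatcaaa
IRX10: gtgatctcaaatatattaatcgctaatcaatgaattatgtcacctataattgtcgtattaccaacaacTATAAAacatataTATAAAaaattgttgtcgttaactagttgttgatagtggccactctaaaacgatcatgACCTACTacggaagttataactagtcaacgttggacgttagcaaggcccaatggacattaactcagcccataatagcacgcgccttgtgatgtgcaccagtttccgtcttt
IRX15: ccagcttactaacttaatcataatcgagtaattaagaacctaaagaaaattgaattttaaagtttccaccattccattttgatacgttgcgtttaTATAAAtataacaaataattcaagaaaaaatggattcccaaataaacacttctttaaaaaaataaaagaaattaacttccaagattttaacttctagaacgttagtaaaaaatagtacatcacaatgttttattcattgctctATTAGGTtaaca
IRX15L: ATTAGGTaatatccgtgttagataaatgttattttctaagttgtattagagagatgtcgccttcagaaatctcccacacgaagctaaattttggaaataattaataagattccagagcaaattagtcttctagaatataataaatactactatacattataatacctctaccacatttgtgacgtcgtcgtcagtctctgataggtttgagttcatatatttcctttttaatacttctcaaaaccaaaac
IRX10, IRX15 and IRX15L each held 1 SMRE and IRX9 held none. The match in IRX10 (ACCTACT) lies in the start-proximal part, whereas those in IRX15 and IRX15L read ATTAGGT on the gene's strand, near the start in IRX15 and at the far end of the window in IRX15L. Among the other members IRX14 held 2 SMRE matches, both ACCAAAC, and IRX9L, IRX14L and IRX10L held none. SMRE occurred in 29.4% of 27443 promoters of protein-coding genes, TATAAA in 32.9% and the secondary wall NAC binding element SNBE, searched on both strands, in 42.6%. SNBE matched in the windows of IRX10, IRX15L and IRX14L, and in IRX10 its matches overlap the SMRE and a TATAAA. With SMRE in 4 of 8 members and such shares among all promoters, these letters are a description of the windows and not of binding.

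Levels are given in FPKM, fragments scaled by gene length and by the mapped fragments of the library, so that genes of different length can be set side by side. The recovered read totals ran from 40351996 to 45079856 per library. Across genes, libraries 2 and 4 of either genotype had almost the same values (Pearson's r of log2 values 0.995) but differed by more than counting noise (median chi-square per gene of 2.22 in the wild type and 2.38 in *hdt1*, against 0.455 from counting alone). Library 1 differed from them within each genotype, with r of 0.9 and 0.897 in the wild type and 0.87 and 0.872 in *hdt1*. Across genotypes r was 0.977 for library 1 but only 0.901 to 0.906 among libraries 2 and 4. The genotypes were thus closer to each other in library 1 than in libraries 2 and 4. Library 1 of a genotype against libraries 2 and 4 of the other gave 0.853 to 0.9. For this reason values of library 1 and of the other libraries are set out separately as well. HDT1 itself stood at 53.3, 65.3 and 56.9 FPKM in wild-type libraries against 4.97, 19.8 and 20.5 FPKM in *hdt1*, in the order of libraries 1, 2 and 4 that is kept throughout. The genotypes did not overlap, in the direction of the labels.

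In wild-type stems the levels of the 8 members ran from 0.307 FPKM in a single library of IRX9 to 28.1 FPKM in one of IRX9L, and IRX9L and IRX10L were each above their paralogue in every wild-type library. IRX9L was highest at 26.4 ± 2.13 FPKM (SD, n = 3), followed by IRX10L at 22.4 ± 0.417 FPKM and IRX14 at 18.3 ± 1.68 FPKM. IRX10 (10.0 ± 0.826 FPKM), IRX15L (8.75 ± 0.508 FPKM) and IRX15 (7.5 ± 6.02 FPKM) came next, and neighbours among these overlapped in range. IRX14L (2.56 ± 0.181 FPKM) and IRX9 (1.2 ± 1.1 FPKM) were lowest and overlapped as well. In mean level over the wild-type libraries, IRX9L stood above 68.1% of the 17906 genes kept for testing and IRX9 above 3.46%.

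The order differed in *hdt1*, where IRX15 (37.7 ± 14.7 FPKM) and IRX15L (34.5 ± 17.2 FPKM) had the highest means. The ranges of neighbours overlapped from IRX15 through IRX15L, IRX9L (24.9 ± 4.51 FPKM), IRX10L (23.0 ± 2.15 FPKM), IRX14 (20.2 ± 1.16 FPKM) and IRX10 (19.7 ± 7.42 FPKM). IRX9 (6.47 ± 1.0 FPKM) lay below these and IRX14L (2.09 ± 0.186 FPKM) was lowest.

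**Figure D1:**
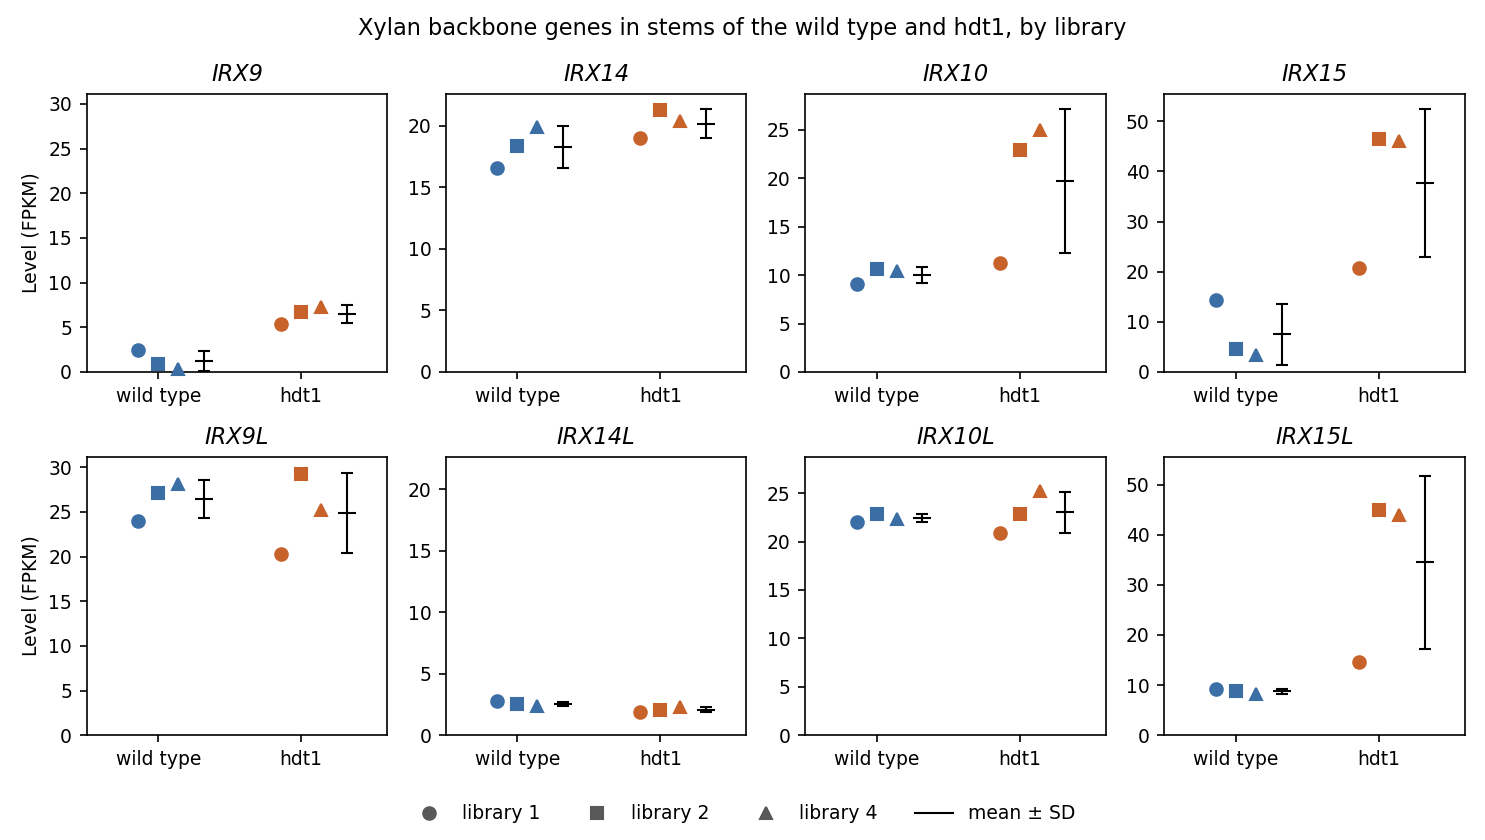
Level of each xylan backbone gene (vertical axis, FPKM, from 0) in the wild type and *hdt1*, with 1 point per library (circle, library 1; square, library 2; triangle, library 4) and the mean ± SD of 3 libraries beside them. The genes of a pair share a column and a scale. IRX9, IRX10, IRX15 and IRX15L lie higher in every *hdt1* library than in every wild-type library, and library 1 of *hdt1* lies nearest to the wild type in each of these 4 panels.

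The comparison of *hdt1* with the wild type asks which genes differ in expression when HDT1 is disrupted. IRX9, IRX10, IRX15 and IRX15L had higher means in *hdt1*, by 1.96 to 5.4 times, IRX9L, IRX14 and IRX10L overlapped between the genotypes, and IRX14L lay slightly lower. None of the 8 passed an adjusted p under 0.05 in limma on log2(FPKM + 1), where 0.0% of the 17906 genes passed as higher and 0.0% as lower. Limma's voom on the recovered reads also called 0 genes. At an unadjusted p under 0.05, 4 members were higher (7.78% of all genes) and 0 lower (5.96% of all genes). In 4 members every *hdt1* library exceeded every wild-type library (8.5% of all genes) and in 1, IRX14L, every *hdt1* library lay below (10.9% of all genes). The median log2 fold change of the 8 was 0.49, or 0.23 within library 1 alone and 0.62 over libraries 2 and 4, beside -0.08, -0.03 and -0.11 over all genes kept. In bulk stems, a different number of cells of a type and a different amount of RNA per cell cannot be told apart.

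Of the GT43 pair of IRX9 and IRX9L, only IRX9 separated the genotypes. IRX9 stood at 2.43, 0.860 and 0.307 FPKM in wild-type libraries against 5.37, 6.72 and 7.32 FPKM in *hdt1*, from 141, 51 and 17 reads and 332, 391 and 425 reads. The counting intervals of the lowest and highest wild-type library (95% Poisson, 0.179 to 0.492 and 2.04 to 2.86 FPKM) did not meet, so the wild-type libraries differed among themselves by more than counting error. All *hdt1* libraries still lay above all wild-type libraries, with the nearest approach in library 1. The log2 fold change was 1.87 (standard error 0.37, 95% interval 0.98 to 2.77, adjusted p = 0.242 from limma), or 0.89 within library 1 alone and 2.36 over libraries 2 and 4. Because IRX9 was near 1 FPKM in the wild type, the added 1 FPKM makes this value smaller, and voom on the reads gave 2.86. IRX9 is also in the study's table of selected genes, which was drawn from these samples, so its place here is not independent of that choice.

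IRX9L was the more abundant gene of the pair in each library, at 24, 27.1 and 28.1 FPKM in wild-type libraries against 20.3, 29.3 and 25.2 FPKM in *hdt1*. Library 1 was the lowest of its genotype in both, and the genotypes overlapped. The log2 fold change was -0.09 (95% interval -0.54 to 0.35, adjusted p = 0.845 from limma).

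The other GT43 pair, IRX14 and IRX14L, stayed within narrow ranges. IRX14 stood at 16.6, 18.4 and 19.9 FPKM in wild-type libraries against 19, 21.3 and 20.4 FPKM in *hdt1*, and the genotypes overlapped through wild-type library 4 and *hdt1* library 1. Its log2 fold change was 0.14 (95% interval -0.22 to 0.50, adjusted p = 0.688 from limma). IRX14L stood at 2.76, 2.52 and 2.40 FPKM in wild-type libraries against 1.92, 2.06 and 2.29 FPKM in *hdt1*. Its *hdt1* libraries all lay below the wild type, by little: wild-type library 4 and *hdt1* library 4 each had 161 reads. The log2 fold change of IRX14L was -0.20 (95% interval -0.60 to 0.19, adjusted p = 0.590 from limma), or -0.36 within library 1 alone and -0.13 over libraries 2 and 4.

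IRX10, the GT47 xylosyltransferase, stood at 9.08, 10.6 and 10.4 FPKM in wild-type libraries against 11.2, 22.9 and 25 FPKM in *hdt1*. The genotypes did not overlap, but *hdt1* library 1 was only just above the wild type while libraries 2 and 4 were far above it. The log2 fold change was 0.83 (standard error 0.31, 95% interval 0.08 to 1.58, adjusted p = 0.329 from limma), or 0.27 within library 1 alone and 1.11 over libraries 2 and 4. IRX10L had the steadiest wild-type level of the 8, at 22.0, 22.8 and 22.3 FPKM, and stood at 20.9, 22.8 and 25.2 FPKM in *hdt1*. The genotypes overlapped, and the log2 fold change was 0.03 (95% interval -0.31 to 0.38, adjusted p = 0.928 from limma).

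The DUF579 genes IRX15 and IRX15L both had higher *hdt1* values. IRX15 stood at 14.4, 4.59 and 3.48 FPKM in wild-type libraries against 20.8, 46.4 and 46.0 FPKM in *hdt1*. Library 1 was the highest of the wild type and the lowest of *hdt1*, so the gap between the genotypes was small there and wide in libraries 2 and 4. The log2 fold change was 2.33 (standard error 0.55, 95% interval 1.0 to 3.65, adjusted p = 0.260 from limma), or 0.50 within library 1 alone and 3.24 over libraries 2 and 4. It was exceeded by 0.676% of the genes kept.

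IRX15L stood at 9.22, 8.81 and 8.21 FPKM in wild-type libraries against 14.6, 44.9 and 43.9 FPKM in *hdt1*. Unlike IRX15, it varied little among the wild-type libraries, and again *hdt1* library 1 lay closest to them. The log2 fold change was 1.71 (standard error 0.43, 95% interval 0.66 to 2.76, adjusted p = 0.280 from limma), or 0.61 within library 1 alone and 2.26 over libraries 2 and 4. It was exceeded by 1.85% of the genes kept. AT5G67220, which overlaps its end, stood at 46.6, 36.1 and 34.4 FPKM in wild-type libraries against 43.0, 28.1 and 29.3 FPKM in *hdt1*, that is, not with the pattern of IRX15L.

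By exact two-sided permutation of single values, IRX9, IRX10, IRX15, IRX15L and IRX14L reached p = 0.1, the smallest that 3 against 3 libraries allow, and the others had p = 0.2 to 0.7. How many members were called depended on library 1. With library 1 against libraries 2 and 4 as a further term in limma, IRX9 was called higher (adjusted p = 0.0451), IRX15L, IRX10 and IRX15 were not (adjusted p = 0.0501, 0.0572 and 0.0616), and 3.82% of all genes were called higher and 2.52% lower. Without *hdt1* library 1, limma called IRX9, IRX10, IRX15 and IRX15L higher (6.82% of all genes), and without wild-type library 1 it called IRX9 and IRX15 higher (3.35% of all genes). On libraries 2 and 4 alone the same 4 members were called higher, but there 27.4% of all genes were called higher and 38.6% lower. Nothing passed when libraries 2 and 4 of a genotype were averaged and counted as 1 sample, which leaves 2 values per genotype to estimate the spread.

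**Figure D2:**
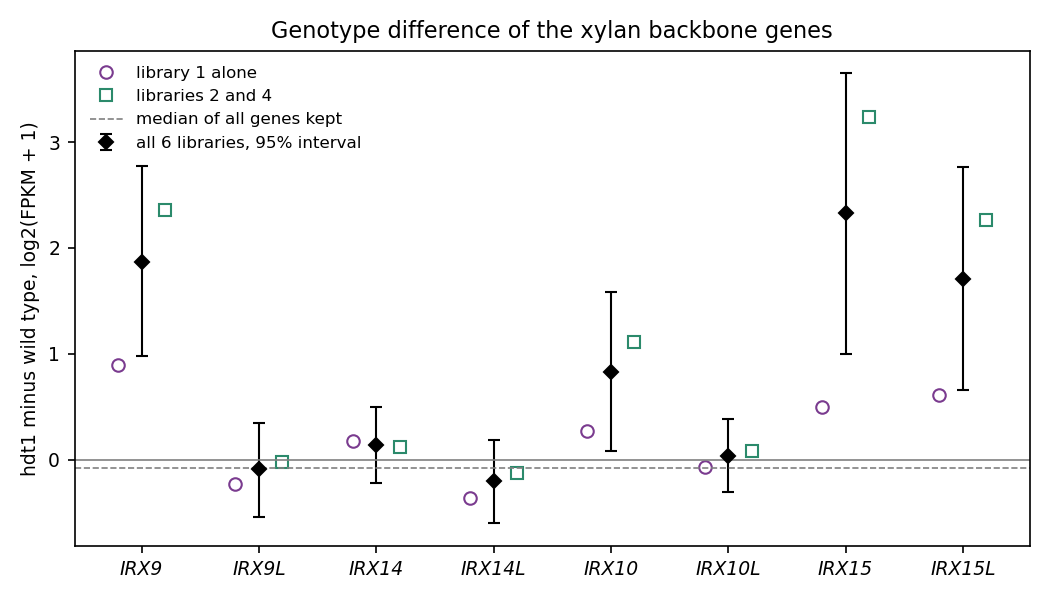
Difference between *hdt1* and the wild type (vertical axis, log2(FPKM + 1)) for the 8 xylan backbone genes: diamonds with 95% intervals from limma over 6 libraries, open circles within library 1 and open squares within libraries 2 and 4. The dashed line is the median of all genes kept, -0.08. IRX9, IRX10, IRX15 and IRX15L have intervals above 0 and larger values in libraries 2 and 4 than in library 1, while the intervals of the other 4 genes include 0.

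The paralogues were next compared with each other inside each library. IRX9 stood below IRX9L in 6 of 6 libraries, with differences of -2.87, -3.92 and -4.48 in the wild type and -1.74, -1.97 and -1.66 in *hdt1* on the log2(FPKM + 1) scale. The mean was -2.77 ± 1.2 (SD, n = 6; exact sign-flip test, p = 0.0312, the smallest that 6 libraries allow, and 0.0625 adjusted over the 4 pairs). As a share of the pair's summed FPKM, IRX9 made up 9.17%, 3.08% and 1.08% in the wild type and 20.9%, 18.7% and 22.5% in *hdt1*. The share thus varied among wild-type libraries and was close to constant in *hdt1*, without overlap.

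IRX14 stood above IRX14L in 6 of 6 libraries, by 2.23, 2.46 and 2.62 in the wild type and 2.77, 2.86 and 2.70 in *hdt1*. The mean was 2.61 ± 0.23 (SD, n = 6; exact sign-flip test, p = 0.0312, and 0.0625 adjusted over the 4 pairs). IRX14 made up 87.6% ± 1.77 of the pair in the wild type and 90.6% ± 0.653 in *hdt1* (SD, n = 3).

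IRX10 minus IRX10L was -1.19, -1.04 and -1.03 in the wild type, and -0.85, 0.00 and -0.01 in *hdt1*. The genes were thus level with each other in *hdt1* libraries 2 and 4 and nowhere else, and IRX10 made up 34.8%, 50.0% and 49.7% of the pair in *hdt1* after 29.2%, 31.7% and 31.8% in the wild type. Over 6 libraries the mean was -0.69 ± 0.54 (SD, n = 6; exact sign-flip test, p = 0.0625, and 0.0833 adjusted over the 4 pairs).

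IRX15 and IRX15L had no constant order. IRX15 was above IRX15L in library 1 of both genotypes (differences of 0.59 and 0.48), below it in wild-type libraries 2 and 4 (-0.81 and -1.04) and about level in those of *hdt1* (0.05 and 0.07). The mean was -0.11 ± 0.67 (SD, n = 6; exact sign-flip test, p = 0.75). The sum of the pair was 23.6, 13.4 and 11.7 FPKM for the wild type against 35.4, 91.3 and 90.0 FPKM in *hdt1*, the widest span of the 4 pairs. In comparison, IRX9 plus IRX9L summed to 27.6 ± 1.03 and 31.4 ± 5.27 FPKM, IRX14 plus IRX14L to 20.9 ± 1.5 and 22.3 ± 1.26 FPKM, and IRX10 plus IRX10L to 32.4 ± 1.2 and 42.7 ± 9.40 FPKM in the wild type and *hdt1* (SD, n = 3).

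Whether the genes of a pair differ in their response to genotype was tested on the same within-library differences. From the wild type to *hdt1* the difference shifted towards the first gene by 1.97 in the IRX9 pair, 0.34 in the IRX14 pair and 0.80 in the IRX10 pair, each without overlap between genotypes (exact permutation test, p = 0.1, and 0.133 adjusted over the 4 pairs). The shift of the IRX9 pair was 1.13 within library 1 and 2.38 within libraries 2 and 4, and that of the IRX10 pair 0.34 and 1.03. With 0.1 FPKM added in place of 1, the shift was 2.81 in the IRX9 pair, 0.43 in the IRX14 pair and 0.85 in the IRX10 pair. The mean level difference of the IRX9 pair was then -3.33, since IRX9 was near 1 FPKM in the wild type. In the IRX15 pair the shift was 0.62 with overlapping genotypes (exact permutation test, p = 0.4), and it came to -0.11 within library 1 and 0.98 within libraries 2 and 4. It was 1.12 without wild-type library 1 (exact permutation test, p = 0.1), 0.42 without wild-type library 2 (exact p = 0.7) and 0.31 without wild-type library 4 (exact p = 0.9). Leaving out each library gave shifts of 1.6 to 2.41 in the IRX9 pair, 0.24 to 0.44 in the IRX14 pair and 0.66 to 1.08 in the IRX10 pair. No shift passed the threshold, which 3 libraries against 3 cannot reach.

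**Figure D3:**
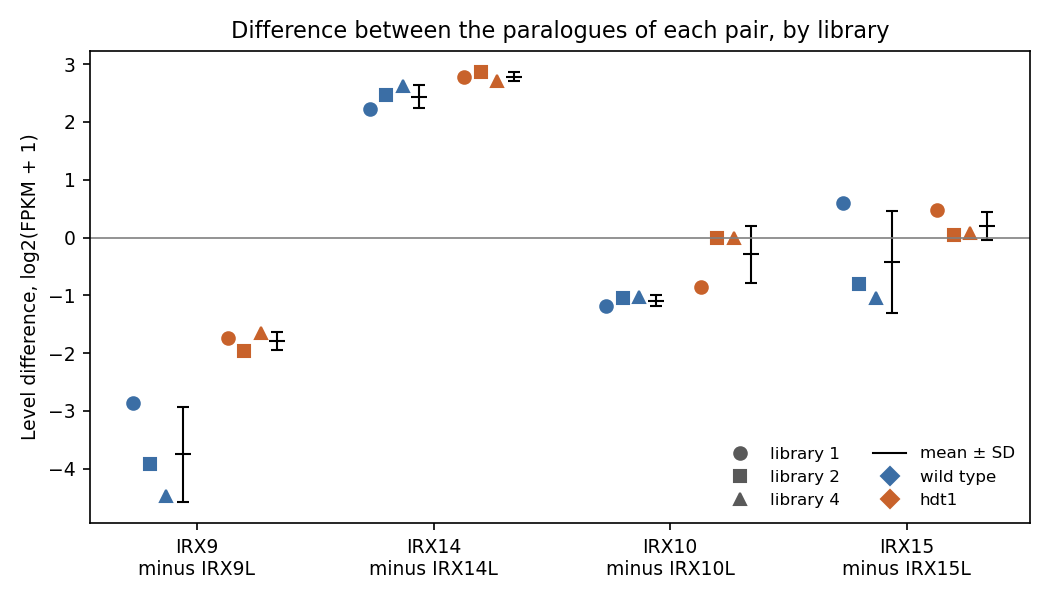
Level of the first gene minus that of its paralogue (vertical axis, log2(FPKM + 1)) in each library, for the 4 pairs, with the wild type on the left and *hdt1* on the right of each pair and the mean ± SD of 3 libraries. IRX9 lies below IRX9L and IRX14 above IRX14L in all 6 libraries, IRX10 reaches IRX10L in *hdt1* libraries 2 and 4, and the IRX15 pair lies on both sides of 0.

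Among the members, IRX9 and IRX15 had the most similar profiles over the 6 libraries (Pearson's r of log2 values 0.98), as had IRX10 and IRX15L (0.98). Each was thus closer to a member of another pair than to its own paralogue, for which r was -0.33 (IRX9 with IRX9L), 0.73 (IRX10 with IRX10L) and 0.90 (IRX15 with IRX15L), and -0.67 for IRX14 with IRX14L. The profiles of IRX9 and IRX15 shared a high wild-type library 1, which IRX10 and IRX15L lacked. Such r values were not rare among the 13983 or 13984 genes with a mean of at least 5 FPKM. By likeness to IRX9, IRX15 had rank 73, and by likeness to IRX15, IRX9 had rank 166. IRX15L had rank 348 for IRX10, and IRX10 had rank 313 for IRX15L. Of the paralogues, IRX15L had rank 843 for IRX15, and IRX15 had rank 1025 for IRX15L. Many other genes were thus closer to these members. The r values and ranks are over 6 points that share libraries, genotype and the split of library 1, and serve as description.

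Across all genes with a mean of at least 5 FPKM, the genes most like IRX15L were the peroxidase gene AT4G33420 and 4CL5, a 4-coumarate:CoA ligase of the phenylpropanoid pathway (r = 0.9996 each). Those most like IRX15 were AT1G30760, of the FAD-binding berberine family (0.9992), and CGR3 (0.9990). Closest to IRX10 were ACA2, a calcium ATPase (0.9993), and the FBD-like gene AT2G27505 (0.9989). Closest to IRX9 were the amino acid transporter gene AT3G56200 (0.9964) and the microtubule-associated protein gene AT4G39320 (0.9962). The members that overlapped between genotypes or lay slightly lower had lower best values, 0.9862 for IRX9L with AT3G01430, 0.9862 for IRX14 with PHS1, 0.9874 for IRX14L with AT3G54363 and 0.9794 for IRX10L with AT5G35995. The second gene for each of these was AT3G07440 (0.9760), AT3G21810 (0.9826), RR3 (0.9862) and AT3G28956 (0.9696), in the same order. The genes named are the 2 with the highest r among 13983 or 13984 genes over only 6 libraries. High values are therefore easily reached, and neither they nor their order among members speak to shared roles.

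The remaining steps of xylan synthesis were taken from a list of 32 genes, of which 28 were kept. None passed in limma at an adjusted p under 0.05. At an unadjusted p under 0.05, 16 of the 28 were higher in *hdt1* (7.78% of all genes) and 0 lower, and in 16 every *hdt1* library exceeded every wild-type library (8.5% of all genes). Over the 28 the median log2 fold change came to 0.65, or 0.31 within library 1 alone and 0.86 over libraries 2 and 4, beside -0.08 over all genes kept. With library 1 against 2 and 4 as a term, 8 were called higher (3.82% of all genes). Several of these genes, GAUT12 and GUX1 among them, are in the study's own table from these samples.

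For the reducing end of the chain, where a short starter sugar sequence is made, 3 of 4 genes were kept. GAUT12, a GAUT family glycosyltransferase, was at 5.15, 2.42 and 2.02 FPKM in wild-type libraries against 10.1, 15.3 and 15.6 FPKM in *hdt1*, without overlap (log2 fold change 1.85, adjusted p = 0.217 from limma). FRA8, of family GT47, overlapped, at 13.8, 43.6 and 43.5 FPKM for the wild type against 20.7, 31.5 and 31.7 FPKM in *hdt1* (log2 fold change -0.12). Its direction turned between library 1 (0.55) and libraries 2 and 4 (-0.45).

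Among 6 genes for glucuronic acid side groups and their methylation, 4 had an unadjusted p under 0.05, all higher (7.78% of all genes). The median log2 fold change was 1.44, beside -0.08 over all genes kept. GUX1, a glucuronosyltransferase that decorates the backbone, was at 4.42, 1.27 and 1.07 FPKM in wild-type libraries against 9.91, 13.4 and 13.7 FPKM in *hdt1* (log2 fold change 2.17, adjusted p = 0.242 from limma). These groups were far apart, and wild-type library 1 was again the highest of its genotype. GXM2, a glucuronoxylan methyltransferase gene, overlapped, at 1.56, 2.18 and 2.0 FPKM against 1.15, 1.5 and 1.74 FPKM (log2 fold change -0.24).

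Of 13 acetylation genes 10 were kept, with 6 higher at an unadjusted p under 0.05 (7.78% of all genes). Their median was 0.65, beside -0.08 over all genes kept. TBL33, a xylan acetyltransferase, was at 4.24, 1.88 and 2.19 FPKM in wild-type libraries against 6.13, 15.7 and 15.2 FPKM in *hdt1* (log2 fold change 1.78, adjusted p = 0.255 from limma). TBL30, of the same family, overlapped at 2.94, 1.49 and 1.76 FPKM against 1.92, 1.53 and 1.68 FPKM (log2 fold change -0.15).

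All 9 genes of UDP-xylose supply, the donor sugar, were kept, with 5 higher at an unadjusted p under 0.05 (7.78% of all genes). Their median was 0.56, beside -0.08 over all genes kept. UXT1, a Golgi UDP-xylose transporter, was at 6.30, 4.07 and 3.77 FPKM in wild-type libraries against 23.2, 16.4 and 18.3 FPKM in *hdt1* (log2 fold change 1.84, adjusted p = 0.138 from limma). Unlike in IRX9, IRX10, IRX15 and IRX15L, its difference was similar within library 1 (1.73) and the other libraries (1.90). UXT3, another transporter of the family, overlapped at 65.0, 44.9 and 44.0 FPKM against 60.5, 40.4 and 42.7 FPKM (log2 fold change -0.10).

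**Figure D4:**
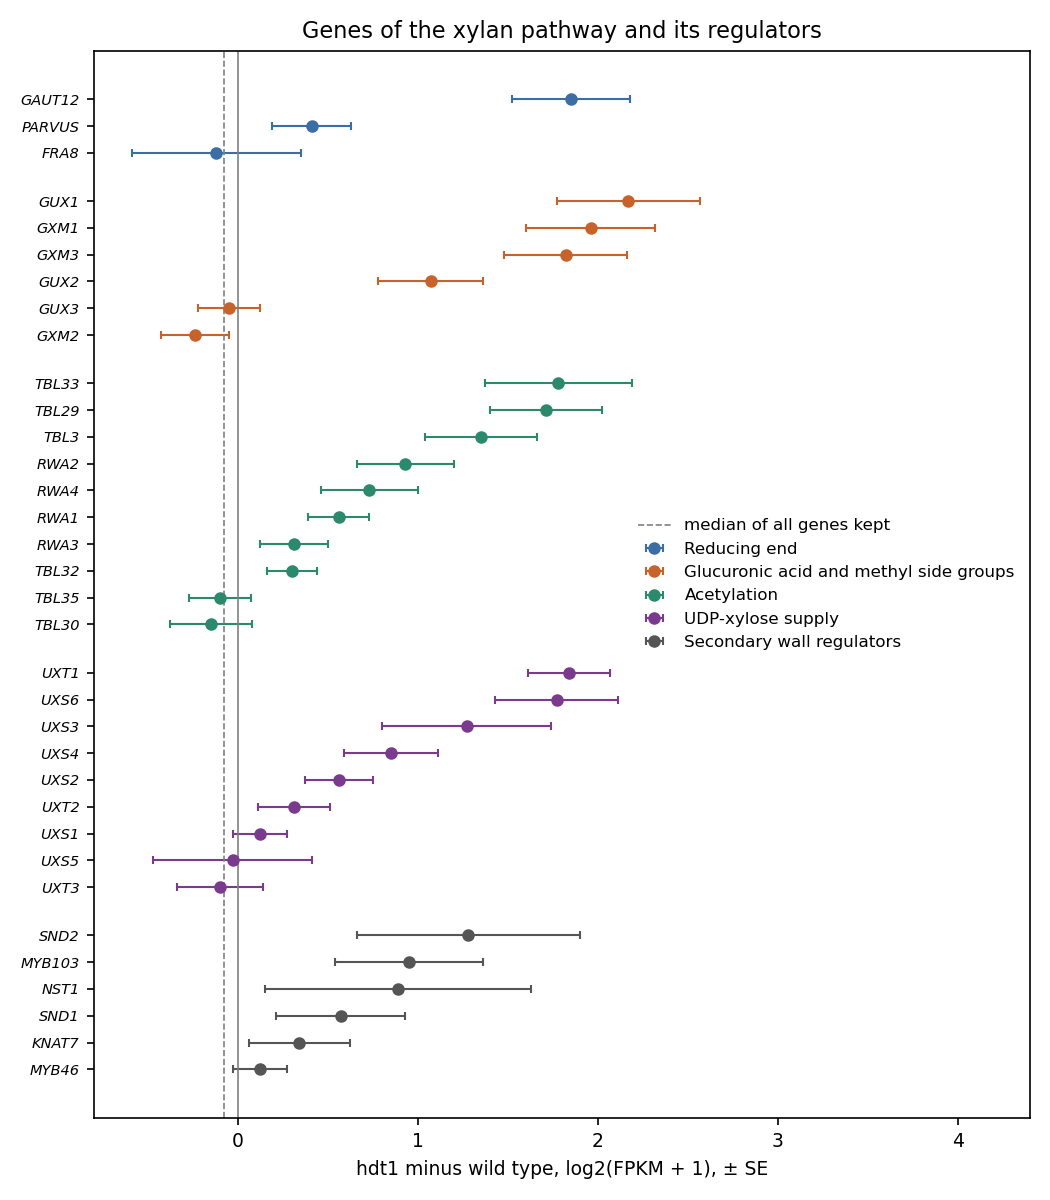
Difference between *hdt1* and the wild type (horizontal axis, log2(FPKM + 1), point ± standard error from limma over 6 libraries) for the 28 genes kept of the xylan pathway list, in 4 groups, and the 6 secondary wall regulators kept. The dashed line is the median of all genes kept, -0.08. In each group of enzymes some genes lie near 0 and others between 1 and 2.2.

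Of 9 transcription factor genes of secondary wall formation, VND6, VND7 and MYB83 did not pass the filter. In the 6 kept none had an unadjusted p under 0.05, against 7.78% of all genes higher and 5.96% lower. The median log2 fold change was 0.73 (0.35 in library 1 and 0.83 in libraries 2 and 4), beside -0.08 over all genes kept. NST1, a NAC master switch of fibres, was at 12.9, 1.67 and 1.52 FPKM in wild-type libraries against 14.0, 5.31 and 5.25 FPKM in *hdt1* (log2 fold change 0.89). SND1, its close relative, was at 9.91, 6.55 and 6.51 FPKM against 19.8, 10.0 and 7.76 FPKM (0.57). Both were highest in library 1 of each genotype, where IRX9, IRX10, IRX15 and IRX15L were lowest within *hdt1*. Within the wild type, IRX9, IRX15 and, by little, IRX15L were highest in library 1, and IRX10 was lowest. Whether the levels of regulators and members are linked was not tested.
SND2, a NAC factor downstream of these switches, was at 4.53, 0.236 and 0.582 FPKM for the wild type against 7.72, 3.46 and 3.02 FPKM in *hdt1* (1.28), and over all libraries it was called with the library term (adjusted p = 0.0469 from limma) and not without it (adjusted p = 0.413). MYB103 was at 2.86, 0.637 and 0.375 FPKM against 3.33, 3.20 and 2.44 FPKM (0.95), and KNAT7, a homeodomain protein, at 39.3, 27.2 and 27.1 FPKM against 57.1, 33.1 and 31.9 FPKM (0.34). All of these overlapped between the genotypes. SND2 and MYB103 lay under 1 FPKM in wild-type libraries 2 and 4, so the added 1 FPKM makes their values smaller. For them voom on the reads gave 2.33 and 1.73. MYB46, a MYB switch, was at 2.52, 2.55 and 2.47 FPKM in wild-type libraries against 2.98, 2.77 and 2.71 FPKM in *hdt1*, without overlap but by only 0.12.

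Summed levels of cell type markers were set beside these values, with no test. The 5 xylem and fibre markers, among them the secondary wall cellulose synthase genes, summed to 34.3, 13.0 and 13.8 FPKM in wild-type libraries against 92.1, 87.3 and 88.7 FPKM in *hdt1*. This sum did not overlap between the genotypes. It was similar in all *hdt1* libraries, and only by little the highest in *hdt1* library 1, where IRX9, IRX10, IRX15 and IRX15L were lowest within *hdt1*. Within the wild type the sum was also highest in library 1. There IRX9, IRX15 and, by little, IRX15L were highest and IRX10 was lowest. The 4 phloem markers summed to 372, 200 and 202 FPKM against 464, 416 and 406 FPKM, and the 3 primary wall cellulose synthase genes to 159, 144 and 152 FPKM against 217, 212 and 205 FPKM, likewise without overlap. Epidermal markers (240, 98.9 and 106 FPKM against 227, 57.1 and 54.5 FPKM) and those of green tissue (3230, 1690 and 1700 FPKM against 3080, 1430 and 1470 FPKM) were higher in library 1 of both genotypes and overlapped. The 4 seed markers summed to 0, 150 and 145 FPKM in wild-type libraries against 0.366, 9.09 and 7.5 FPKM in *hdt1*. They were thus close to 0 in library 1 of both genotypes. In libraries 2 and 4 they were present, at far higher sums in the wild type than in *hdt1*. The floral markers AP3, PI and AG were under 1 FPKM in every library. Of the xylem and fibre markers, XCP2, CESA4 and CESA7 are in the study's table of selected genes, which was drawn from these samples. The epidermal marker PDF1 is in it as well, so these sums are not independent of that table. The part of the marker shifts in the levels of the backbone genes was not tested.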

How the data were processed

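RNA-seq of stems was run on an Illumina instrument for 3 samples per genotype, and the authors deposited 1 FPKM value per gene and library, with no further normalization between libraries described. The paper calls the unit RPKM. Bowtie2 2.2.3, TopHat2 2.0.12 and HTSeq 0.6.1 are named in the submitters' processing notes. No source used here gives the genome build or the strand setting. Samples are numbered 1 to 3 in the labels and 1, 2 and 4 in the columns, and only the genotype of a column was taken from its name. The series text speaks of no replicates and the paper of triplicates, and nothing says that plants of a genotype were raised apart. The p-values cover only the spread among these samples, which may be technical.

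The filter kept 17906 genes that reached 1 FPKM in 3 or more libraries, all 8 members included. Limma 3.58.1 (R 4.3.3) was applied to log2(FPKM + 1) with genotype as the only term and a mean-variance trend, and p-values were adjusted over all genes kept by the method of Benjamini and Hochberg. Log2 fold changes are *hdt1* minus wild type. The original software was not run. From the deposited FPKM values, whole read counts were computed for all 25374 features above 0, by finding the step of which a gene's values are whole multiples, within 1e-06 reads. For 713 features, IRX15L among them, the counts were then multiplied by a common factor to fit the gene length. Counting intervals are exact Poisson intervals and cover counting error only. Paralogues were compared by exact sign-flip and permutation tests with SciPy 1.17.1 (Python 3.11.15), two-sided. The fits and the count recovery were tested on simulated data. For the fits, the simulated library 1 was shifted alike in both genotypes. A genotype difference that varies between library 1 and the others, as seen here, was thus not covered.

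The members, the gene lists and the split of library 1 were chosen with earlier results of these data known. The genes named are all members, HDT1, the 2 genes most like each member, the genes of the largest and smallest log2 fold change in each of the 4 pathway groups and all regulators kept. Genes that overlap a member were named after their place was seen. Promoters and coordinates are from RefSeq's annotation of TAIR10.1, in which all 8 members matched.

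Library numbers were checked for pairing. Deviations from the genotype means of libraries with the same number correlated at 0.56, 0.53 and 0.46 for numbers 1, 2 and 4, which meets the limit of 0.1 for pairing. Crossing numbers 2 and 4 gave 0.51 and 0.54. A library 1 that differs from the rest in each genotype suffices for this, and no source says what a number marks.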

Additional observations from a re-analysis of the deposited data

How the results depend on the processing

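The fold changes of IRX9, IRX14, IRX14L, IRX10, IRX15 and IRX15L kept their direction under all alternatives run (pseudocount 0.1, no filter, a mean of at least 5 FPKM, median-ratio and quantile scaling, the replicate block, the library 1 term, libraries 2 and 4 alone or averaged, voom and each library left out). IRX9 and IRX14L did not pass the 5 FPKM filter. With the library 1 term 1 member, 8 genes of the xylan list and 1 regulator were called, each higher (3.82% of all genes called higher and 2.52% lower). On libraries 2 and 4 alone 4, 22 and 5 were called, FRA8 of the xylan list lower and the others higher (27.4% of all genes higher and 38.6% lower). With each library left out in turn the counts ranged from 0 to 4 members, 0 to 11 xylan genes and 0 to 1 regulators, where the highest counts came without *hdt1* library 1 (6.82% of all genes higher and 4.31% lower) and, for the regulators, without wild-type library 1 (3.35% and 3.0%).

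IRX9 passed with the library 1 term (1.87), and on libraries 2 and 4 alone the log2 fold changes called were 2.36 (IRX9), 1.11 (IRX10), 3.24 (IRX15) and 2.26 (IRX15L). Leaving out each library gave 1.56 to 2.25 for IRX9, 0.63 to 1.18 for IRX10, 1.97 to 2.87 for IRX15 and 1.44 to 2.22 for IRX15L. Values near 0 changed sign there for IRX9L (-0.21 to 0.04), IRX10L (-0.03 to 0.10), TBL30 (-0.28 to 0.05) and UXT3 (-0.28 to 0.08), and the cause was not tested. FRA8 changed sign as well (-0.64 to 0.15, and 0.05 with libraries 2 and 4 averaged). Its value near 0 over all libraries averaged opposite differences, 0.55 within library 1 and -0.45 over libraries 2 and 4.

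The level difference without each library was -2.99 to -2.43 for the IRX9 pair and 2.56 to 2.68 for the IRX14 pair, each with an exact p of 0.0625, the smallest that 5 libraries allow, and -0.25 to 0.08 for the IRX15 pair, which was 0.54 within library 1. The genotype shifts within library 1 were 1.13, 0.55, 0.34 and -0.11 for the pairs of IRX9, IRX14, IRX10 and IRX15.

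Median-ratio scaling moved the median of all genes from -0.08 to -0.03. The replicate block by library number called 0 members, with adjusted p-values of 0.156 for IRX9 and 0.160 to 0.166 for IRX15L, IRX10 and IRX15, and changed no call. The depth limits IRX9 most, with 17 reads in wild-type library 4.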
